A study of Mus musculus with 8 samples.

Results

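The genes described here are the Golgi glycosyltransferases of 11 families whose symbols start with B3gnt, B3galt, B4galt, B4galnt, Galnt, Mgat, Gcnt, St3gal, St6gal, St8sia or Fut, as measured in perigonadal white adipose tissue (pgWAT), the fat pad beside the testis and epididymis of the male mouse. They were chosen by these symbol stems and by level alone: a gene was kept when at least 1 of its probes read above an intensity of 106 on 3 or more of 8 arrays. The Illumina MouseRef-8 v2.0 array carried 112 probes for 75 genes of these families, of which 53 probes of 35 genes passed and 40 genes did not. The whole table held 25697 probes of 16593 genes, and 13925 probes of 9686 genes passed the same rule.

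Each array read the RNA of 1 male mouse. The 3 arrays called FKO here, titled KO, came from adipocyte OGT knockout mice. By the methods these carried OGT flox/Y together with Cre driven by the Adiponectin promoter. The 5 arrays called Con here, titled WT, came from littermates, by the methods with OGT flox/Y and no Cre. The labels give the strain as B6 and the methods name the Adiponectin-Cre strain as C57BL/6J. All mice were 15 weeks old by the labels and had eaten a high-fat diet for 3 days. The Adiponectin promoter is active in adipocytes, so other cells of the fat pad keep their Ogt. The comparison asks whether loss of OGT in adipocytes goes with other transcript levels in the fat pad, and in bulk tissue fewer cells of a type and less RNA per cell cannot be told apart.

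Glycosyltransferases of the Golgi take a sugar from a nucleotide sugar and add it to a growing glycan on a protein or lipid. The sugars are loaded on nucleotides in the cytosol, or in the nucleus for sialic acid, and transporters of the Slc35 family carry them into the Golgi lumen. OGT draws on UDP-GlcNAc, the donor that Mgat, B3gnt and Gcnt enzymes also use, but adds a single sugar to proteins of the cytosol and nucleus, and it is no Golgi enzyme. Galnt enzymes start mucin-type O-glycans, Mgat enzymes set the branches of N-glycans, B3gnt, B4galt, B3galt, B4galnt and Gcnt enzymes extend or branch chains, and St3gal, St6gal, St8sia and Fut enzymes add sialic acid or fucose, most of them at or near the ends of chains.

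The window of 250 bases upstream of the annotated start is printed for 4 genes: St3gal3 and Galnt11, which read low on Con 1, Con 3 and FKO 2, and Galnt10 and B4galt7, which read high on them. They were picked after their values were seen, and other members shared each of these orders. Sequences are from RefSeq on GRCm38.p6, on the strand of the gene, 5′ to 3′, with the GC box (GGGCGG or its reverse complement CCGCCC) and the CCAAT box (CCAAT or its reverse complement ATTGG) in capitals. St3gal3 lies at chr4:118134947-118135196 on the minus strand, Galnt11 at chr5:25222622-25222871 on the plus strand (1 of 2 windows of that gene), Galnt10 at chr11:57645192-57645441 on the plus strand and B4galt7 at chr13:55599646-55599895 on the plus strand.
St3gal3: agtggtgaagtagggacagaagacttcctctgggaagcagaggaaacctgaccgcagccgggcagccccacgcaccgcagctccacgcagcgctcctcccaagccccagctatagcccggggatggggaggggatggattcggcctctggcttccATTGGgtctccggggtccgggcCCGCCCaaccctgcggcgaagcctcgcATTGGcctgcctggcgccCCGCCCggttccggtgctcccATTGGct
Galnt11: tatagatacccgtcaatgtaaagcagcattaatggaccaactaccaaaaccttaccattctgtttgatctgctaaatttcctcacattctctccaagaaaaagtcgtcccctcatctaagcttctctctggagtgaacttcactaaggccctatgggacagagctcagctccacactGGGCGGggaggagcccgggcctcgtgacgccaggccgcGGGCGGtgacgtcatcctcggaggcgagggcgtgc
Galnt10: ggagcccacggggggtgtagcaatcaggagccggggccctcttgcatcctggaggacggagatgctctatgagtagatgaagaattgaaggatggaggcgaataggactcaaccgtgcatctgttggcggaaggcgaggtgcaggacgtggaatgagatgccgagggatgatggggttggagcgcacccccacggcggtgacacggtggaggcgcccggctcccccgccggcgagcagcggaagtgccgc
B4galt7: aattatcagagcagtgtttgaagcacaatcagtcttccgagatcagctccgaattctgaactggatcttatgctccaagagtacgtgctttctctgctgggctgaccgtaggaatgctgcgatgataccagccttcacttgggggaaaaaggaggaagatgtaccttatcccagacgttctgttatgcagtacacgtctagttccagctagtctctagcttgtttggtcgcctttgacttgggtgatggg

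The window of St3gal3 held 2 GC boxes and 3 CCAAT boxes in a sequence of 68.4% G and C. The Galnt11 window held 2 GC boxes at 54.0% G and C. Neither motif was found in the windows of Galnt10 (64.4% G and C) and B4galt7 (48.0%), which says only that these letters are not there. Over the 25 members with an entry, 18 of 39 windows, in 17 genes, held a GC box, against 32.7% of all 32851 windows. A CCAAT box was in 11, against 33.8%. Some genes have several windows, and all windows were counted whether or not their gene passed the level. The shares are therefore not like for like. The other motifs, searched on both strands, were rarer: TATAAA was in 1 member window (12.4% of all windows), AGGTCA, the core of many nuclear receptor sites, in 2 (14% of all) and CACGTG, the E-box, in 1 (6.02% of all).

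Ogt, the targeted gene, was read first. With its brightest probe (ILMN_2611676) the intensities were 296, 177 and 260 on FKO 1, FKO 2 and FKO 3, against 188, 264, 199, 232 and 267 on Con 1 to Con 5. The groups overlapped, and Con 1, Con 3 and FKO 2 were the lowest 3 arrays with each of the 3 Ogt probes. The log2 difference, FKO minus Con, was 0.08 (SE 0.23, exact permutation test over all 56 splits, two-sided, p = 0.768), and p was 0.946 with each of the other probes. Ogt therefore does not bear out the labels. Where these probes lie relative to the deleted exons was not settled here, so a level outside them would check nothing. Every direction below is one between arrays as labelled.

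Adipocyte identity was plain on every array: all 13 adipocyte markers measured, Adipoq and Plin1 among them, read above 106 on each of the 8 arrays. Epididymal transcripts were not even. The 17 measured genes of the epididymis list summed to 15434, 1716 and 25646 intensity units on FKO 1, FKO 2 and FKO 3, against 1790, 3825, 1875, 1942 and 1828 on Con 1 to Con 5, and 16, 3 and 16 of them read above 106 on the FKO arrays, against 5, 17, 7, 10 and 8 on the Con arrays. The defining marker Adam7 read 3939, 117 and 7925 on the FKO arrays, against 142, 531, 196, 221 and 132 on the Con arrays. FKO 1, FKO 3 and Con 2 were thus the arrays with epididymal transcripts. The part of these transcripts in the results below was not tested. Leaving those arrays out leaves FKO 2 as the only FKO array, so differences from that fit are given as descriptions. Leaving out FKO 2, alone or with Con 1 and Con 3, leaves FKO 1 and FKO 3 as the FKO arrays. Both carry epididymal transcripts, so such fits do not separate the label from these transcripts. The 13 endothelial markers summed to 6393, 8290 and 4495 on the FKO arrays, against 7501, 5702, 7646, 5346 and 6285 on the Con arrays. The sum was highest on FKO 2, Con 3 and Con 1, though single markers such as Emcn and Vwf kept other orders. Mean log2 levels of the progenitor and fibroblast list and of the dim lymphocyte list were also highest on those arrays.

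The 35 members did not separate FKO from Con. None passed limma at an adjusted p under 0.05 in either direction (0% of all 9686 genes higher, 0% lower), and the smallest adjusted p of a member was 1.00. Of the 35 members, 18 had a positive difference (51.4%, against 43.4% of all genes) and 17 a negative one. Their median log2 difference was 0.01, against −0.02 over all genes, and the fitted differences ran from −0.59 for B4galnt2 to 0.54 for Galnt11. The standard errors ran from 0.06 to 0.34 with a median of 0.11, the same as the 0.11 over all genes. The methods' t-test at its own threshold called 0 members, both on the values as corrected here and on log2 of the deposited values, and at an unadjusted p under 0.05 limma held 4 members: Fut4 and Galnt18 higher on FKO arrays (2 of 35, 2.54% of all genes) and B4galnt2 and Gcnt1 lower (2 of 35, 2.15% of all genes), of which B4galnt2 passed the level only through the Con arrays.

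**Figure D1:**
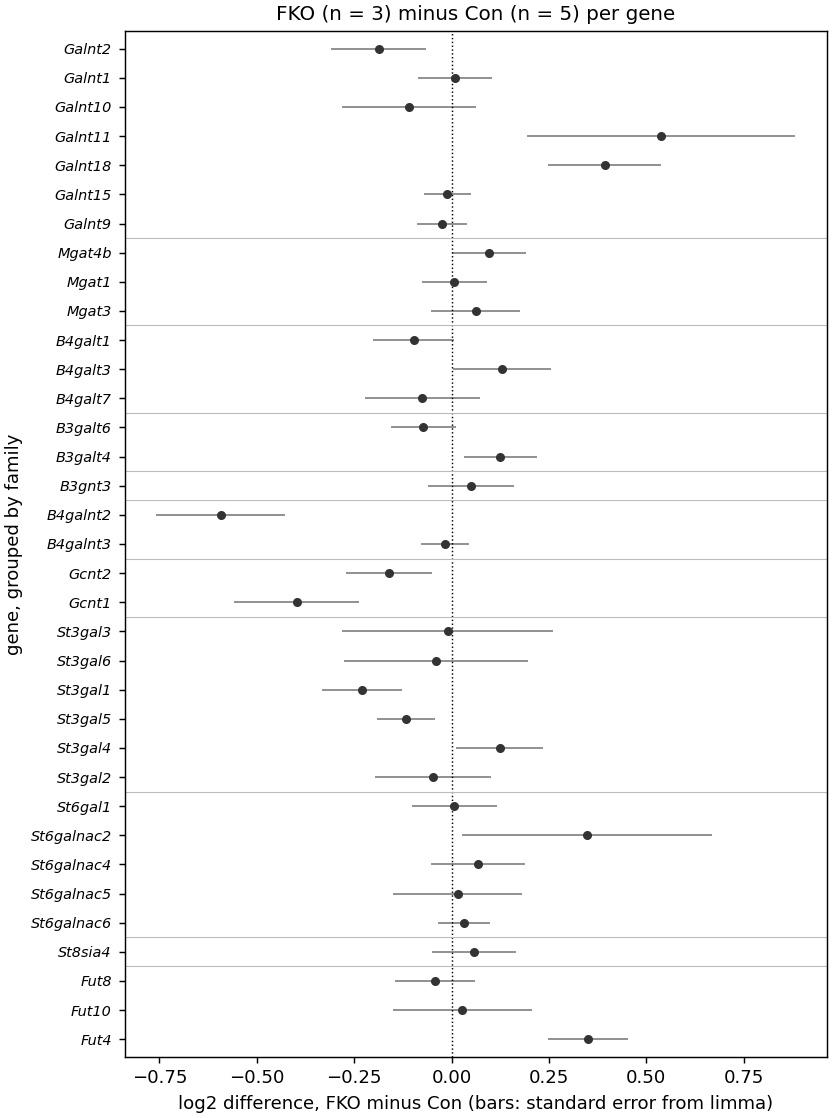
Log2 difference, FKO minus Con, of each of the 35 member genes (rows, grouped by family); points are limma estimates from 3 FKO and 5 Con arrays and bars are standard errors. The points run from −0.59 (B4galnt2, which passed the level only through the Con arrays) to 0.54 (Galnt11), and no gene passed an adjusted p of 0.05.

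By family the signs were mixed, beside a positive difference in 43.4% of all genes. Some signs rest on differences far below their standard error, as in St6gal1 (0.007, SE 0.11) and Mgat1 (0.007, SE 0.08). The Galnt genes had 3 positive and 4 negative differences among 7 members, and the 15 Galnt genes on the array included 8 that did not pass the level. Among the enzymes that extend or branch, the 3 Mgat members were all positive, B4galt had 1 positive of 3, B3galt 1 of 2, and B4galnt and Gcnt 0 of 2 each. The sialyltransferases of the St3gal family had 1 positive of 6 and those of the St6gal stem, which takes in the St6galnac genes, 5 of 5. The Fut genes had 2 positive of 3. B3gnt and St8sia were each represented by 1 member, B3gnt3 and St8sia4.

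Galnt2, a broadly expressed starter of mucin-type O-glycans, read 1785, 2340 and 1777 on the FKO arrays, against 2329, 2020, 2581, 2090 and 2102 on Con 1 to Con 5. FKO 1 and FKO 3 were the lowest arrays and FKO 2 lay among the Con arrays. The log2 difference was −0.19 (SE 0.12, exact permutation p = 0.214). Without FKO 1, FKO 3 and Con 2, which leaves only FKO 2 of the FKO arrays, it was 0.05. Of its 3 probes, 2 gave a negative difference and 1 a positive one.

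Galnt11, which glycosylates NOTCH1 in studies of vertebrate embryos, had the widest range of all members on the log2 scale, 1.64. It read 489, 237 and 653 on the FKO arrays, against 245, 364, 255, 347 and 314 on Con 1 to Con 5. FKO 1, FKO 3 and Con 2, the arrays with epididymal transcripts, were the highest 3 and Con 1, Con 3 and FKO 2 the lowest 3. The difference was 0.54 (SE 0.34, exact permutation p = 0.268). It was 0.80 (limma adjusted p = 0.19) without Con 1, Con 3 and FKO 2, 1.01 (adjusted p = 0.10) without FKO 2, and 0.19 (adjusted p = 1.00) without FKO 3. Each fit without FKO 2 leaves FKO 1 and FKO 3, both with epididymal transcripts, as the FKO arrays. Without FKO 1, FKO 3 and Con 2, which leaves only FKO 2 of the FKO arrays, the difference was −0.33.

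Galnt18, another member of the family, read 154, 133 and 191 on the FKO arrays, against 135, 130, 135, 122 and 125 on the Con arrays. FKO 1 and FKO 3 lay above all Con arrays and FKO 2 within them. The difference was 0.39 (SE 0.14, unadjusted p = 0.025 by limma, adjusted p = 1.00; exact permutation p = 0.054). Its unadjusted limma p was above 0.05 without Con 4, Con 5, FKO 1 or FKO 3. The difference was 0.21 without FKO 3 and 0.62 (adjusted p = 0.26) without Con 1, Con 3 and FKO 2. The latter fit leaves FKO 1 and FKO 3, both with epididymal transcripts, as the FKO arrays. Without FKO 1, FKO 3 and Con 2, which leaves only FKO 2 of the FKO arrays, the difference was 0.07.

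Galnt10 was highest where Galnt11 was lowest. It read 411, 550 and 389 on the FKO arrays, against 595, 418, 534, 416 and 446 on the Con arrays, with Con 1, FKO 2 and Con 3 highest. The difference was −0.11 (SE 0.17, exact permutation p = 0.536). Galnt1 read 486, 601 and 592 on the FKO arrays, against 602, 520, 579, 530 and 544 on the Con arrays, with groups that overlapped throughout and a difference of 0.01 (SE 0.10).

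Mgat4b, which adds a GlcNAc branch to N-glycans, was the brightest Mgat gene. It read 470, 469 and 529 on the FKO arrays, against 465, 502, 397, 464 and 479 on the Con arrays. FKO 3 was the highest and Con 3 the lowest array, and the difference was 0.10 (SE 0.09, exact permutation p = 0.393). Mgat1, which starts the complex and hybrid branches, read between 127 and 147 on all arrays, and its 2 probes differed in sign. Mgat3, which adds the bisecting GlcNAc, read 132 on FKO 3, whereas its other 7 arrays lay from 104 to 114.

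B4galt1, the main beta-galactosyltransferase of N-glycans in many tissues, read 449, 376 and 349 on the FKO arrays, against 377, 405, 415, 454 and 420 on the Con arrays. The arrays overlapped and the difference was −0.10 (SE 0.10). B4galt3, of the same family, read 314, 246 and 335 on the FKO arrays, against 264, 294, 261, 298 and 254 on the Con arrays. FKO 1 and FKO 3 were highest and FKO 2 lowest, with a difference of 0.13 (SE 0.13). Without FKO 1, FKO 3 and Con 2, which leaves only FKO 2 of the FKO arrays, it was −0.15.

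B4galt7, which adds the first galactose of the linker that joins glycosaminoglycans to proteoglycans, read 146, 182 and 159 on the FKO arrays, against 190, 150, 181, 145 and 179 on the Con arrays. Con 1, FKO 2 and Con 3 were the highest 3, and the difference was −0.08 (SE 0.15, exact permutation p = 0.750). B3galt6, which adds the next galactose of that linker, was also highest on those arrays. It read 180, 211 and 202 on the FKO arrays, against 209, 200, 219, 194 and 204 on the Con arrays, a difference of −0.07 (SE 0.08). B3galt4, which acts in ganglioside synthesis, averaged 121 ± 3.91 on FKO arrays and 114 ± 7.51 on Con arrays (SD, n = 3 and 5), a difference of 0.13 (SE 0.09).

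B4galnt2, which makes the Sda antigen by adding GalNAc to a galactose that carries sialic acid, had the largest negative difference. It read 106, 102 and 107 on the FKO arrays, against 138, 142, 150, 160 and 109 on the Con arrays. The groups did not overlap, but Con 5 lay next to the FKO arrays. B4galnt2 passed the level of the rule only through Con: all 5 Con arrays read above 106, against 1 of the 3 FKO arrays. It was read by a single probe. The fitted difference, −0.59 on the log2 scale, therefore sets Con against a group at the level of the rule and is given as a description, with no test. Without Con 5, the Con array nearest to that level, limma called the gene (−0.72, adjusted p = 0.048), the single setting of those tried in which a named member passed; that call has the same limit and supports nothing.

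Gcnt1, which makes the branched core of O-glycans on which selectin ligands are built, read 189, 165 and 156 on the FKO arrays, against 183, 253, 217, 234 and 179 on the Con arrays. FKO 2 and FKO 3 were below all Con arrays, FKO 1 above Con 1 and Con 5. The difference was −0.40 (SE 0.16, unadjusted p = 0.038 and adjusted p = 1.00 by limma; exact permutation p = 0.089), and −0.24 with its other probe. The unadjusted limma p was above 0.05 without Con 2, Con 3, Con 4, FKO 2 or FKO 3. The difference was −0.37 without FKO 1, FKO 3 and Con 2, which leaves only FKO 2 of the FKO arrays. Gcnt2, which branches the I antigen, read 818, 956 and 772 on the FKO arrays, against 1102, 862, 852, 968 and 936 on the Con arrays, with overlap and a difference of −0.16 (SE 0.11). B3gnt3, which extends O-glycans, read 132 on FKO 2 and lower on the other arrays, with a difference of 0.05 (SE 0.11). The difference was −0.10 without FKO 2 and 0.36 without FKO 1, FKO 3 and Con 2, where FKO 2 is the 1 FKO array left.

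**Figure D2:**
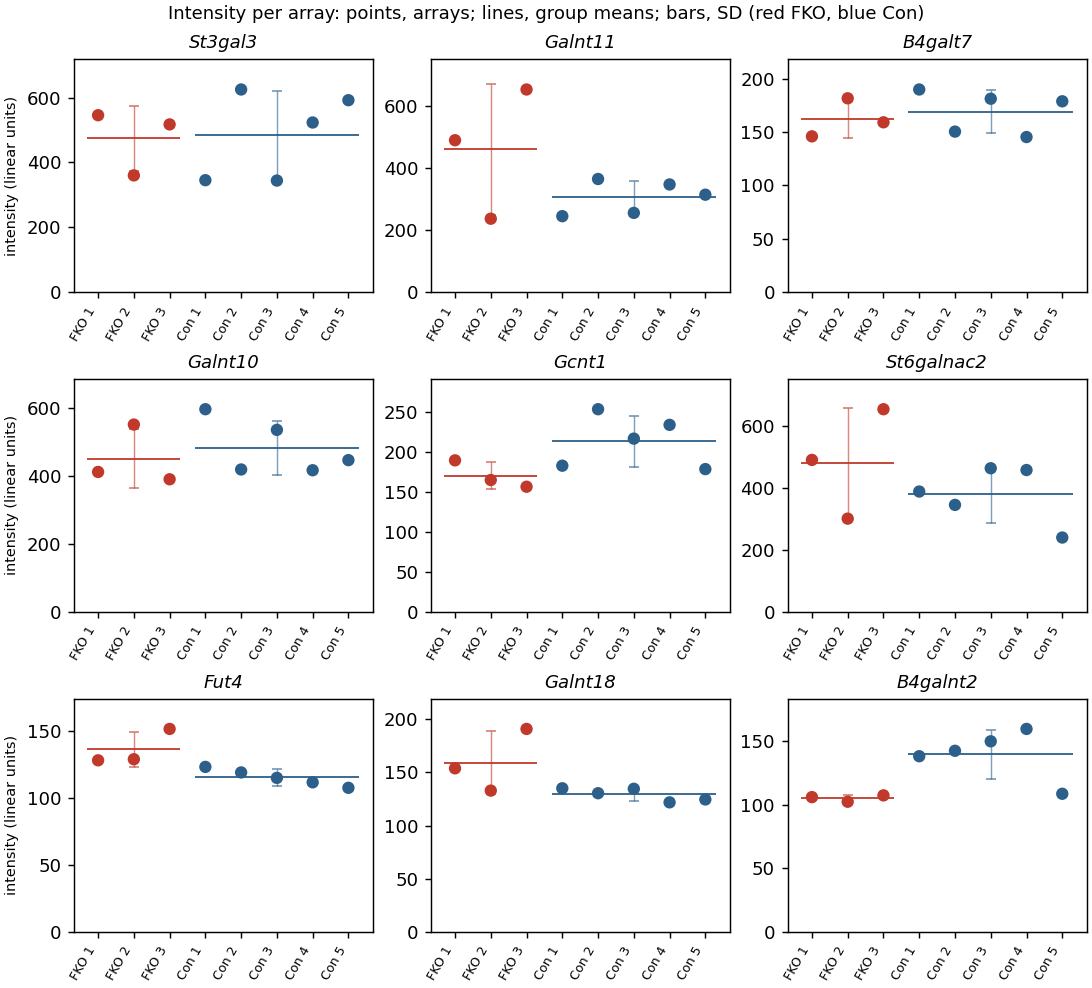
Intensity (linear units, from 0) on each of 8 arrays for 9 member genes; points are arrays (red FKO, blue Con), lines group means and bars SD (n = 3 FKO, n = 5 Con). St3gal3 and Galnt11 were lowest on FKO 2, Con 1 and Con 3, B4galt7 and Galnt10 highest on them, and Fut4 and B4galnt2 had groups that did not overlap. B4galnt2 passed the level of the rule only through the Con arrays, so its separation is a description.

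All 6 St3gal genes on the array passed the level; these enzymes cap galactose with sialic acid. St3gal3, the brightest of them, split the arrays most clearly. It read 546, 360 and 517 on the FKO arrays, against 345, 625, 344, 523 and 592 on Con 1 to Con 5, so that Con 1, Con 3 and FKO 2 lay between 344 and 360 and the other 5 arrays between 517 and 625. The gap ran across the labels: the mean was 474 ± 99.9 on FKO arrays and 486 ± 134 on Con arrays (SD, n = 3 and 5), with a difference of −0.01 (SE 0.27, exact permutation p = 0.982). Its dimmer probe was also lowest on FKO 2, Con 3 and Con 1, with values from 107 to 114 there and from 116 to 122 on the other 5 arrays.

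St3gal6 read 414, 372 and 225 on the FKO arrays, against 351, 290, 371, 389 and 278 on the Con arrays. FKO 1 was the highest and FKO 3 the lowest array, and the difference was −0.04 (SE 0.24, exact permutation p = 0.946). St3gal1, which sialylates the core of O-glycans, read 159, 152 and 137 on the FKO arrays, against 160, 159, 164, 167 and 192 on the Con arrays, a difference of −0.23 (SE 0.10, exact permutation p = 0.054). St3gal5, which makes the ganglioside GM3, averaged 151 ± 6.63 on FKO arrays and 160 ± 7.66 on Con arrays (SD, n = 3 and 5), with a difference of −0.12 (SE 0.07).

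The remaining St3gal genes were dim. St3gal2 read 137, 117 and 134 on the FKO arrays, against 117, 138, 117, 152 and 142 on the Con arrays, and shared with St3gal3 its lowest 3 arrays, Con 1, Con 3 and FKO 2. The difference was −0.05 (SE 0.15). St3gal4, the 1 member of the family with a positive difference, averaged 152 ± 10.8 on FKO arrays and 143 ± 12.3 on Con arrays (SD, n = 3 and 5), at 0.12 (SE 0.11).

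St6gal1, which adds sialic acid in the linkage of serum glycoproteins, differed little between arrays. It read 433, 468 and 397 on the FKO arrays, against 483, 390, 468, 435 and 382 on the Con arrays, a difference of 0.01 (SE 0.11). St6galnac2, which sialylates the GalNAc of O-glycans, had a range of 1.62 on the log2 scale, close to that of Galnt11. It read 492, 302 and 655 on the FKO arrays, against 389, 346, 465, 459 and 240 on the Con arrays, with FKO 3 and FKO 1 highest and Con 5 lowest. The difference was 0.35 (SE 0.32, exact permutation p = 0.393). It was 0.066 without FKO 3, 0.17 without Con 5, 0.68 without FKO 2 and 0.84 without Con 1, Con 3 and FKO 2. Each fit without FKO 2 leaves FKO 1 and FKO 3, both with epididymal transcripts, as the FKO arrays. Without FKO 1, FKO 3 and Con 2, which leaves only FKO 2 of the FKO arrays, the difference was −0.35. St8sia4, a polysialyltransferase, averaged 205 ± 22.2 on FKO arrays and 198 ± 14.0 on Con arrays (SD, n = 3 and 5), a difference of 0.06 (SE 0.11). The dimmer St6galnac4, St6galnac5 and St6galnac6, of the same O-glycan and ganglioside sialyltransferases, had differences of 0.07 (SE 0.12), 0.02 (SE 0.17) and 0.03 (SE 0.07).

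Fut4, which adds fucose to make Lewis x, was the single member with all FKO arrays above all Con arrays (1 of 35, 1.20% of all genes), as B4galnt2 was the single one with all below (1 of 35, 1.46% of all genes). B4galnt2 passed the level only through the Con arrays, and Fut4 on all 8 arrays. It read 128, 129 and 151 on the FKO arrays, against 123, 119, 115, 111 and 107 on the Con arrays. The nearest arrays of the 2 groups, FKO 1 and Con 1, were 128 and 123, and all values were near the level of the rule. The difference was 0.35 (SE 0.10, unadjusted p = 0.0091 and adjusted p = 1.00 by limma; exact permutation p = 0.018, the smallest that these group sizes allow). It was 0.45 without Con 1, Con 3 and FKO 2, which leaves FKO 1 and FKO 3, both with epididymal transcripts, as the FKO arrays. Without FKO 1, FKO 3 and Con 2, which leaves only FKO 2 of the FKO arrays, it was 0.26. Fut8, which adds the core fucose of N-glycans, read 215, 228 and 189 on the FKO arrays, against 242, 216, 216, 203 and 202 on the Con arrays, a difference of −0.04 (SE 0.10). Fut10 read 143, 170 and 121 on the FKO arrays, against 164, 126, 157, 134 and 130 on the Con arrays, with FKO 2, Con 1 and Con 3 highest.

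**Figure D3:**
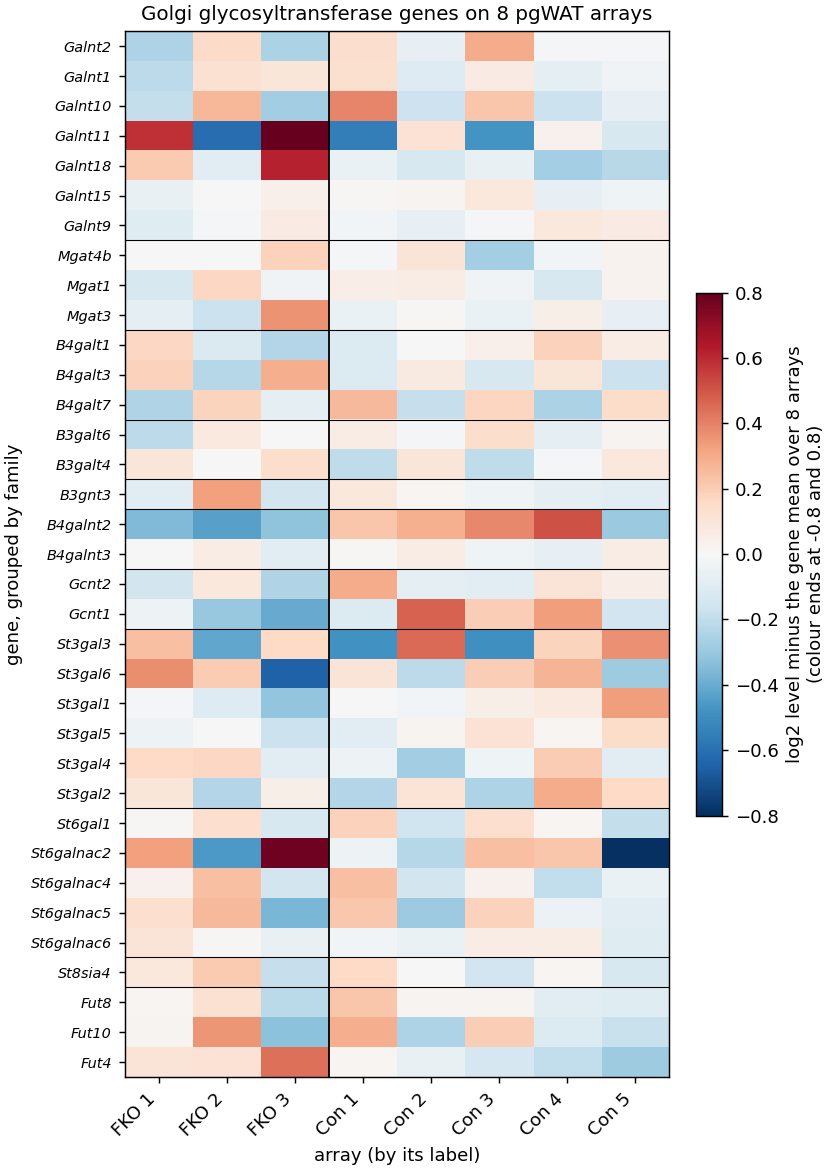
Log2 level of the 35 member genes (rows, grouped by family) on 3 FKO and 5 Con arrays (columns), minus the mean of each gene over the 8 arrays; red is above and blue below that mean, and the colour ends at −0.8 and 0.8. FKO 2, Con 1 and Con 3 share their colour in St3gal3 and Galnt11 (blue) and in Galnt10, B4galt7 and Fut10 (red), while FKO 1 and FKO 3 stand out in Galnt11 and St6galnac2.

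The orders of the arrays were counted over the members and over all genes. Con 1, Con 3 and FKO 2 were the lowest 3 arrays for 3 of 35 members (Galnt11, St3gal2 and St3gal3), against 11.6% of all genes, and the highest 3 for 7 of 35 (B3galt6, B4galt7, Fut10, Galnt10, Galnt2, St6gal1 and St6galnac5), against 14.8% of all genes. FKO 1, FKO 3 and Con 2 were the highest 3 for 2 of 35 (B3galt4 and Galnt11), against 4.57% of all genes, and the lowest 3 for 1 of 35 (Galnt2), against 6.22%. The members' shares were 8.57%, 20.0%, 5.71% and 2.86%, each on few genes. These arrays were known to stand apart from earlier results of the same data, so the counts describe the members and are no test.

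The range of a member on the log2 scale had a median of 0.51, against 0.44 over all genes, and 3 members exceeded 1 (Galnt11, St6galnac2 and St3gal6). Of the 35 members, 19 stayed under 212, 2 times the level, on all arrays, where folds are compressed, and 12 stayed over it on all. Of the 15 members with several probes above the level, 12 had differences of 1 sign and Galnt2, Mgat1 and St8sia4 did not.

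The genes near the level of the rule carried little signal. Just inside were B4galnt3, Galnt15 and Galnt9, whose third-highest arrays read 106.9, 108.3 and 110.1, and just outside were Mgat5, B3gnt5 and B4galt2, with 105.9, 104.9 and 104.4. Mgat5, which sets a further branch of N-glycans, read above 106 on 2 arrays and B3gnt5 and B4galt2 on 1 each. Of the 40 genes that did not pass, 32 were above 106 on no array, Mgat2, St8sia1, Fut1 and Fut2 among them, so no difference was measured for them. B4galnt3, Galnt15 and Galnt9 had differences of −0.02 (SE 0.06), −0.01 (SE 0.06) and −0.02 (SE 0.07).

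Genes that supply, move or remove the sugars were read from lists of the pathway, and limma called none of them in either direction. Nucleotide sugar synthesis had 9 positive and 10 negative differences among 19 measured genes, with a median of −0.01, and Gne, the entry enzyme of sialic acid synthesis, was the member with an unadjusted p under 0.05, at a difference of 0.21 (SE 0.07, limma adjusted p = 1.00). The 12 nucleotide sugar transporters were 6 and 6 (median 0.01), the 11 enzymes that trim N-glycans 7 and 4 (0.02), the 14 other starting and core enzymes of the Golgi 4 and 10 (−0.04) and the 23 genes of Golgi structure and trafficking 13 and 10 (0.04). These medians stand beside −0.02 over all genes.

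The lysosomal enzymes that take glycans apart had 6 positive and 5 negative differences (median 0.01), with 2 large ones. Man2b1, a lysosomal alpha-mannosidase, read 1446, 987 and 2165 on the FKO arrays, against 990, 921, 1001, 972 and 739 on the Con arrays, a difference of 0.69 (SE 0.24, limma adjusted p = 1.00). Neu1, the lysosomal sialidase, read 1220, 466 and 1743 on the FKO arrays, against 521, 633, 511, 709 and 559 on the Con arrays, a difference of 0.81 (SE 0.39, limma adjusted p = 1.00). Both were highest on FKO 3 and FKO 1, the arrays with the highest epididymal sums, and the part of those transcripts in the 2 differences was not tested.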

How the data were processed

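Each of 8 male mice gave pgWAT RNA for 1 array. Groups were taken from the sample labels, which name 3 mice KO and 5 WT, called FKO and Con here after the figure legends. The methods give the sizes the other way round and an earlier start of the diet. The authors quantile-normalized the deposited intensities, which are linear, with an identical minimum and maximum on every array; the software and any earlier background correction are not given in the sources used here. A further table of non-normalized signals was not used, because its 16 value columns name no sample. Of the 25697 probes, 23978 carry 1 symbol in the annotation of the array and 1719 carry none.

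Values were background-corrected with limma 3.58.1 in R 4.3.3 (normexp, offset 50), then quantile-normalized again before the log2 step. Between 51.7% and 51.8% of the probes per array read above 106. Precision is limited by how few arrays there are. Probes above 106 on 3 or more arrays were fitted by group (lmFit, eBayes, two-sided, FKO minus Con), with Benjamini-Hochberg adjustment over all 13925 probes. Intensities in the text are the deposited ones, and each gene is given by its brightest probe. Levels of different probes are not comparable. The exact permutation test compared group means of log2 values across the 56 possible splits, so its smallest p is 0.018; the p-values cover only the variation among the mice of this series. The methods' t-test assumed equal variances at p under 0.01 with a fold above 1.5; it was run on these corrected values and, chosen after seeing the data, on log2 of the deposited ones. The code was tested on simulated data.

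Members, lists and tests were chosen with earlier results of these data known. Named are Ogt, the 12 brightest members, the 10 with the widest range, those with an unadjusted p under 0.05 or groups that do not overlap, the brightest of each family, and the 3 genes on each side of the level; other genes were named after their values were seen. One gene of these families is left out by the rule and is not reported here. Alternatives were the background correction, offset, normalization, level filter, array weights, eBayes settings, replicate block, the methods' t-test, every probe in place of the brightest, and omission of each array or of 2 sets of 3 arrays that stand apart. Correlations with marker lists are not given, because the arrays fall into separate clusters. Promoter windows came from a RefSeq table on GRCm38.p6, which matched 25 of 35 members by symbol.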

Additional observations from a re-analysis of the deposited data

How the results depend on the processing

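No member passed the threshold under any setting except 1: without Con 5, B4galnt2 was called, so that leaving out single arrays gave 0 to 1 called members. B4galnt2 passed the level only through the Con arrays, so that call supports nothing. Over all probes, limma called 0 higher and 0 lower, with 322 higher and 275 lower at an unadjusted p under 0.05; leaving out single arrays gave 0 to 192 called higher and 0 to 15 called lower. The 192 came without FKO 2, with 2 lower, and the 15 without Con 5. Without FKO 2, alone or with Con 1 and Con 3, the FKO arrays are FKO 1 and FKO 3. Both carry epididymal transcripts, and the part of these transcripts in such calls was not tested. The methods' t-test called 0 probes higher and 1 lower, and 0 after Benjamini-Hochberg adjustment. It was run on the corrected, re-normalized values, whereas the methods name quantile-normalized data. On log2 of the deposited values, a setting added after seeing the data, the test likewise called 0 higher and 1 lower, 0 after adjustment. The paper reports far more genes in each direction at these thresholds, and the source of that gap was not tested. With limma, 1 probe was called higher without the 3 arrays lowest in Ogt (Con 1, Con 3 and FKO 2). The median difference of the members was −0.044 without those, 0.065 without the 3 arrays with epididymal transcripts (FKO 1, FKO 3 and Con 2, which leaves 1 FKO array, taken to vary like the Con arrays), and −0.052 to 0.023 with single arrays left out. Over 24 named members, 470 differences were computed, of which 50, in 18 genes, turned their sign, none past the threshold. The methods' t-test on corrected values, the level filters and the eBayes settings leave the estimate unchanged, so they could turn no sign. The t-test on deposited values repeats the estimates made without background correction. The 470 therefore make the signs look steadier than they were. The cause of the turned signs was not tested. The size of log2 differences near the level depended on the background step. Fut4 was 0.24 without background correction, 0.35 with the offset of 50 and 0.59 with an offset of 16. B4galnt2, which passed the level only through the Con arrays, was −0.40, −0.59 and −1.02 in the same order. For the bright Galnt2 they were −0.18, −0.19 and −0.19.

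Without the 3 arrays with epididymal transcripts, the turned differences were 0.041 for B3galt6, 0.068 for B4galnt3, −0.15 for B4galt3, 0.11 for Fut8, 0.17 for Galnt10, −0.33 for Galnt11, 0.047 for Galnt2, 0.13 for St3gal6 and −0.35 for St6galnac2. Without the 3 lowest in Ogt they were −0.070 for B3gnt3, 0.018 for Galnt15 and −0.011 for St8sia4. With array weights they were −0.028 for B3gnt3, 0.017 for B4galt1, −0.047 for Fut10, −0.10 for Galnt1, 0.22 for St3gal3, 0.081 for St3gal6 and −0.032 for St6gal1. With single arrays left out, B3galt6 ran from −0.13 to 0.011, B3gnt3 from −0.10 to 0.14, B4galnt3 from −0.052 to 0.023, Fut10 from −0.14 to 0.20, Fut8 from −0.12 to 0.051, Galnt1 from −0.051 to 0.11, Galnt15 from −0.036 to 0.014, Galnt9 from −0.066 to 0.017, St3gal3 from −0.13 to 0.20, St3gal6 from −0.24 to 0.27, St6gal1 from −0.057 to 0.074 and St8sia4 from −0.029 to 0.17. Those that kept their sign ran from 0.19 to 1.01 for Galnt11, 0.066 to 0.68 for St6galnac2, 0.21 to 0.56 for Galnt18, 0.24 to 0.41 for Fut4, 0.027 to 0.29 for B4galt3, 0.034 to 0.13 for Mgat4b, −0.72 to −0.52 for B4galnt2, −0.50 to −0.32 for Gcnt1, −0.32 to −0.12 for Galnt2, −0.28 to −0.0048 for Galnt10, −0.25 to −0.092 for Gcnt2 and −0.21 to −0.0095 for B4galt1.

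Replicate numbers 1 to 3 occur in both groups, and same-numbered arrays deviated apart (correlations −0.56, −0.70 and −0.41). Each pair joins an array with epididymal transcripts to an array outside that set. The correlations therefore cannot settle whether the number stands for anything shared, and the labels do not say. With the replicate number as a block, 0 probes were called, and 210 had an unadjusted p under 0.05, against 597 without the block. The 1 member among the 210 was B4galnt2, which passed the level only through the Con arrays, so this supports nothing. The block turned Fut10 to −0.063, Galnt1 to −0.024, Galnt9 to 0.019, St3gal3 to 0.17 and St6gal1 to −0.048. No slide is named in the files, so no fit with slide as a block was made. Of the 35 members, 19 lay under 2 times the level on all arrays, where the signal over background limits what can be measured.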
